A study of Mus musculus with 18 samples.

Results

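The genes described here encode the machinery that shortens, decaps and degrades mRNA. Members were chosen by symbol: the Cnot, Exosc, Lsm1 to Lsm7, Smg and Upf families, plus Ddx6, Pan2, Pan3, Parn, Dcp1a, Dcp1b, Dcp2, Edc3, Edc4, Xrn1, Xrn2, Patl1, Btg1 and Btg2. The symbols matched 52 genes of 9787 with a symbol, and all 52 had enough reads to be tested in every comparison. They comprise 11 genes of the CCR4-NOT deadenylase, 3 of the PAN2-PAN3 and PARN deadenylases, 2 BTG adaptors, 9 genes of decapping and 5′ to 3′ decay, 7 of the LSM ring, 10 of the RNA exosome and 10 of nonsense-mediated decay. The cells were GTML, a mouse medulloblastoma line from a germline model in which GLT1-driven expression places a human MYCN transgene in hindbrain progenitors; all groups carry that transgene, and how many tumours or clones the line stands for is not given in the sources used here. Treatment lasted 3 h, with 3 replicates each for the solvent DMSO, Rapalink-1 at 50 nM and rapamycin at 5 nM. Rapamycin inhibits the growth kinase mTOR allosterically, and Rapalink-1 links rapamycin to an inhibitor of the ATP site of mTOR. The comparison asks how the decay machinery responds when S6K signalling alone, or S6K and eIF4E signalling together, is blocked.

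Each dish gave a library of ribosome footprints, the mRNA stretches that translating ribosomes shield from nuclease, and a library of total RNA from the same lysate, 18 libraries in all. The libraries held 6788365 to 13300292 reads for RNA and 7692625 to 14150068 for footprints. The 52 genes took 0.388 to 0.393% of RNA reads in DMSO, 0.342 to 0.346% with Rapalink-1 and 0.403 to 0.412% with rapamycin. They took 0.371 to 0.386% of footprint reads in DMSO, 0.438 to 0.453% with Rapalink-1 and 0.38 to 0.393% with rapamycin. As a check of the labelled brain origin, 7 of 10 neural progenitor and glial markers and 6 of 15 granule neuron markers had a row, with 0.0329 to 0.0586% and 0.0408 to 0.0952% of reads per library. Of the other lists, 1 of 10 oligodendrocyte, 2 of 12 microglia and blood and 1 of 12 vascular and fibroblast markers had a row, with at most 0.0297% of reads. The microglia and blood list took 0.0026 to 0.0029% of footprint reads with Rapalink-1 and 0.00521 to 0.00783% in DMSO, and its part in the results was not tested. The other markers, among them Sox2 and Atoh1, were not analysed here. The labels do not say that replicates were separate cultures, so p-values measure the spread between these samples, which may be technical. In bulk libraries, fewer cells that express a gene and less RNA per cell cannot be told apart.

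Decay of most mRNAs begins with removal of the poly(A) tail by PAN2-PAN3 and CCR4-NOT, which adaptors such as BTG and TOB proteins recruit. The LSM1-7 ring and PATL1 then bind the shortened end, the helicase DDX6 and the EDC proteins promote cap removal by DCP2, and XRN1 digests the body from the 5′ end, while the exosome digests from the 3′ end. Nonsense-mediated decay detects premature stop codons through UPF1, which the kinase SMG1 phosphorylates. mTOR controls translation of mRNAs that start with a terminal oligopyrimidine (TOP) tract, a C followed by further pyrimidines, so the 5′ ends of the members are shown first.

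RefSeq start sites (build GRCm38.p6) were matched for 43 of the 52 members, which have 52 start windows. The sequences below run from 15 bases before to 15 bases after the annotated start, in lower case before it and in capitals within the transcript, for those with a TOP-like start and for a selection of members whose efficiency rose or fell with Rapalink-1.
Cnot10, chr9:114640186-114640215 (-): ccggaagtagcgtctCCCTTGGCCGCTACG
Cnot8, chr11:58104294-58104323 (+): acagaggctacggggCTCTCGGTCCCCGGA
Btg1, chr10:96616986-96617015 (+): ctgcacggcggcggcAGCTCTTCGCCCCTC
Cnot3, chr7:3645254-3645283 (+): aggagaagagaggagGGGAGGCCTCCGCCG
Smg1, chr7:118243623-118243652 (-): ggcgggcggagccggGAGGCGGGGAAGCCG
Upf3a, chr8:13785600-13785629 (+): acaccgaattccaagGGAGGGGCTGCCTAG
Exosc6, chr8:111056324-111056353 (+): caagggcagcccagcAGGCGGAAGTAGCTC
Exosc1, chr19:41933300-41933329 (-): atgagaagtcgtcttGGTTCTCATCCGGGT
Xrn2, chr2:147012984-147013013 (+): cggtggtggtatgacGTAACTTCCGGCCGC
Cnot10 and 1 of the 4 annotated starts of Cnot8 opened with C and at least 4 pyrimidines, which is 4.65% of member genes, beside 2.97% of all tested genes in the table and 21.7% of cytosolic ribosomal protein genes. When such a run could begin up to 5 bases to either side of the start, Btg1, Xrn2, Dcp1b, Exosc10 and Upf3b were added, giving 16.3% of member genes, 23.3% of tested genes and 48.3% of ribosomal protein genes. Upf3a, Exosc6 and Exosc1, whose efficiency fell with Rapalink-1 under the main scaling, and Cnot6l (3 annotated starts, not shown), Cnot3 and Smg1, whose efficiency rose, did not have these letters in either window. On both strands of the 300-base promoters, CCGGAAG was in 27.9% of member genes and 23.5% of tested genes, and TGTTTAC was in 9.3% (Btg1, Exosc2, Exosc6 and Lsm6) and 2.93%. CGCATGCG was in 11.6% of member and 5.19% of tested genes, TGACGTCA in 4.65% and 4.08%, and CACGTG in 6.98% and 12.6%. A match is a description of letters, not of a site. Annotated starts may differ from those used in these cells, so missing letters do not show that a TOP tract is absent.

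Translational efficiency, the footprint change minus the RNA change on the log2 scale, rose for some members and fell for others after Rapalink-1. Most falls were lost when scaling by library totals. At an adjusted p under 0.05, efficiency rose for 16 members and fell for 11, against 22.3% and 19.9% of the 10988 genes tested. Footprints rose for 15 and fell for 19, against 25.7% and 28.0% of 11281 genes. RNA rose for 7 and fell for 19, against 19.3% and 18.8% of 11271 genes. The member median was 0.11 for efficiency, -0.05 for footprints and -0.13 for RNA, with all tested genes at 0.06, 0.01 and 0.00. No spike-in is recorded, so these values are relative to the other genes. Scaling by library totals moved the median of all genes by 0.37 for efficiency, 0.27 for footprints and -0.14 for RNA. Member counts then became 35 higher and 4 lower for efficiency, 28 and 6 for footprints, and 5 and 29 for RNA. Counts under library totals move with all genes, and the share of all genes called there is not given here. They are therefore not read as particular to the members. Scaling by DESeq2 size factors, or by TMM without ribosomal protein genes, kept all 27 efficiency calls. RNA enters both RNA and efficiency, so a fall in RNA beside a rise in efficiency is partly built in.

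**Figure D1:**
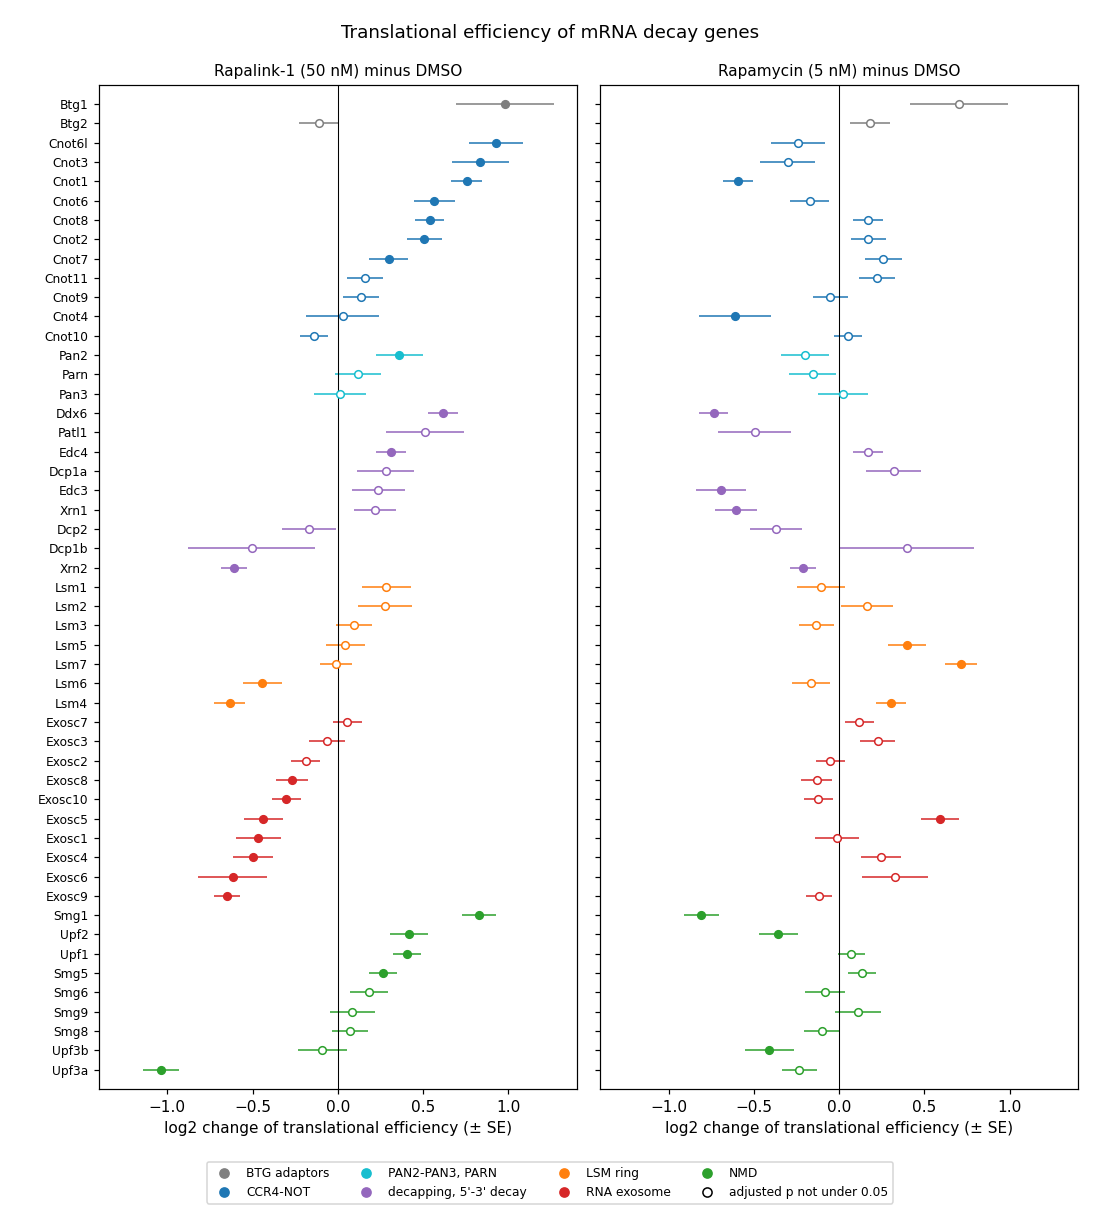
Log2 change of translational efficiency (x axis, ± SE) of the genes, grouped by role, with Rapalink-1 on the left and rapamycin on the right; filled points have an adjusted p under 0.05. With Rapalink-1 the CCR4-NOT genes that pass lie right of 0 and the exosome genes that pass lie left of it under the main scaling; with rapamycin Smg1, Ddx6, Edc3, Cnot4, Xrn1 and Cnot1 lie left of -0.5.

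Among the CCR4-NOT genes, efficiency relative to other genes rose for 7 of 11 after Rapalink-1 and fell for none, beside 22.3% and 19.9% of all genes tested. The median of the 11 was 0.51. Under library totals it was 0.88 and 10 rose, but the median of all genes also moved up there, by 0.37. Footprints rose for 6 and fell for none, beside 25.7% and 28.0% of all genes. RNA fell for 4 and rose for none, beside 18.8% and 19.3%. Cnot1, the scaffold, had RNA at 267, 236 and 270 CPM (reads per 1000000 of the scaled library) in the DMSO libraries and 215, 217 and 231 with Rapalink-1. Its footprints stood at 339, 313 and 279 CPM in DMSO and 441, 428 and 442 with Rapalink-1. The groups did not overlap in either assay: RNA was low and footprints were high in all 3 Rapalink-1 dishes. The log2 change was -0.22 ± 0.05 (SE, adjusted p = 0.000438) for RNA, 0.49 ± 0.07 for footprints and 0.76 ± 0.09 (SE, adjusted p = 6.17e-09) for efficiency.

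All 4 catalytic subunits rose in efficiency, but differed in which assay passed. Cnot6l, an exonuclease subunit, had footprints of 24.5, 25.0 and 22.6 CPM in DMSO and 39.1, 37.7 and 44.7 with Rapalink-1, with efficiency changed by 0.93 ± 0.16 (SE, adjusted p = 3.07e-06). The related Cnot6 rose in efficiency by 0.57 ± 0.12 (SE, adjusted p = 9.5e-05) while its RNA fell by 0.32 ± 0.08. Cnot8, a deadenylase of the CAF1 type, kept RNA at 85.9, 86.0 and 81.0 CPM in DMSO and 87.8, 85.0 and 86.1 with Rapalink-1, groups that overlapped. Its footprints went from 75.6, 72.1 and 79.9 to 114, 109 and 105 CPM with no overlap, 0.53 ± 0.07 (SE, adjusted p = 9.12e-09). The paralog Cnot7 instead lost RNA, -0.41 ± 0.07 (SE, adjusted p = 7.53e-06), and its footprint change of -0.15 ± 0.09 (SE, adjusted p = 0.143) missed the threshold. Its efficiency rose by 0.30 ± 0.11 (SE, adjusted p = 0.0304).

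Among the other subunits, Cnot3, which helps to hold the complex together, rose in footprints from 64.5, 65.9 and 63.9 to 95.3, 93.5 and 88.0 CPM, and its efficiency by 0.84 ± 0.17 (SE, adjusted p = 4.63e-05). Its RNA was low at 9.24, 7.75 and 12.7 CPM in DMSO, and that change missed the threshold. Cnot2 rose in efficiency by 0.51 ± 0.10. Efficiency changes of Cnot4, Cnot9, Cnot10 and Cnot11 ranged from -0.14 to 0.16 and missed the threshold. The efficiency call of Cnot7 was lost without DMSO replicate 1 or 3 or Rapalink-1 replicate 3. The footprint call of Cnot6, 0.21 ± 0.08 (SE, adjusted p = 0.037), was lost without any of the DMSO replicates or without Rapalink-1 replicate 1 or 2.

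The BTG adaptors, which bring CCR4-NOT to mRNA and restrain proliferation, differed from each other. Btg1 footprints were 5.81, 3.22 and 7.87 CPM in DMSO, 14.9, 15.4 and 16.0 with Rapalink-1 and 14.1, 12.2 and 12.3 with rapamycin. All treated dishes exceeded all DMSO dishes, and the log2 change was 1.41 ± 0.18 (SE, adjusted p = 1.15e-08) with Rapalink-1 and 1.15 ± 0.18 (SE, adjusted p = 5.97e-06) with rapamycin. These values rest on few reads, 77, 23 and 75 in the DMSO footprint libraries, whose CPM also spread widely. Btg1 efficiency rose with Rapalink-1 by 0.98 ± 0.29 (SE, adjusted p = 0.00514), a call lost without DMSO replicate 1. With rapamycin its efficiency change was 0.70 ± 0.29 (SE, adjusted p = 0.0927); with the dish as a block for RNA and footprints of 1 lysate it was 0.765 with an adjusted p of 0.0489. Btg2 footprints were 51.1, 47.4 and 51.2 CPM in DMSO and 45.0, 44.0 and 42.1 with Rapalink-1, -0.19 ± 0.08 (SE, adjusted p = 0.0364). That call was lost without DMSO replicate 1 or 3 or Rapalink-1 replicate 2 or 3, and under library totals the value was 0.08.

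Of the other deadenylases, Pan2, the catalytic subunit of PAN2-PAN3, rose in footprints from 37.0, 32.7 and 33.5 to 48.9, 53.7 and 52.5 CPM with Rapalink-1, 0.58 ± 0.08 (SE, adjusted p = 2.58e-07). Parn, which also trims non-coding RNAs, had footprints of 41.7, 38.1 and 40.0 CPM in DMSO and 45.7, 54.9 and 52.1 with Rapalink-1, 0.34 ± 0.08 (SE, adjusted p = 0.000806). Its RNA change of 0.26 ± 0.10 (SE, adjusted p = 0.0392) passed narrowly: it was lost without DMSO replicate 1 or 2 or Rapalink-1 replicate 2, and it was 0.26 with an adjusted p of 0.0582 with replicate number as a block. It was also lost under library totals. Pan3, the regulatory partner of Pan2, passed in none of the 9 comparisons.

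**Figure D2:**
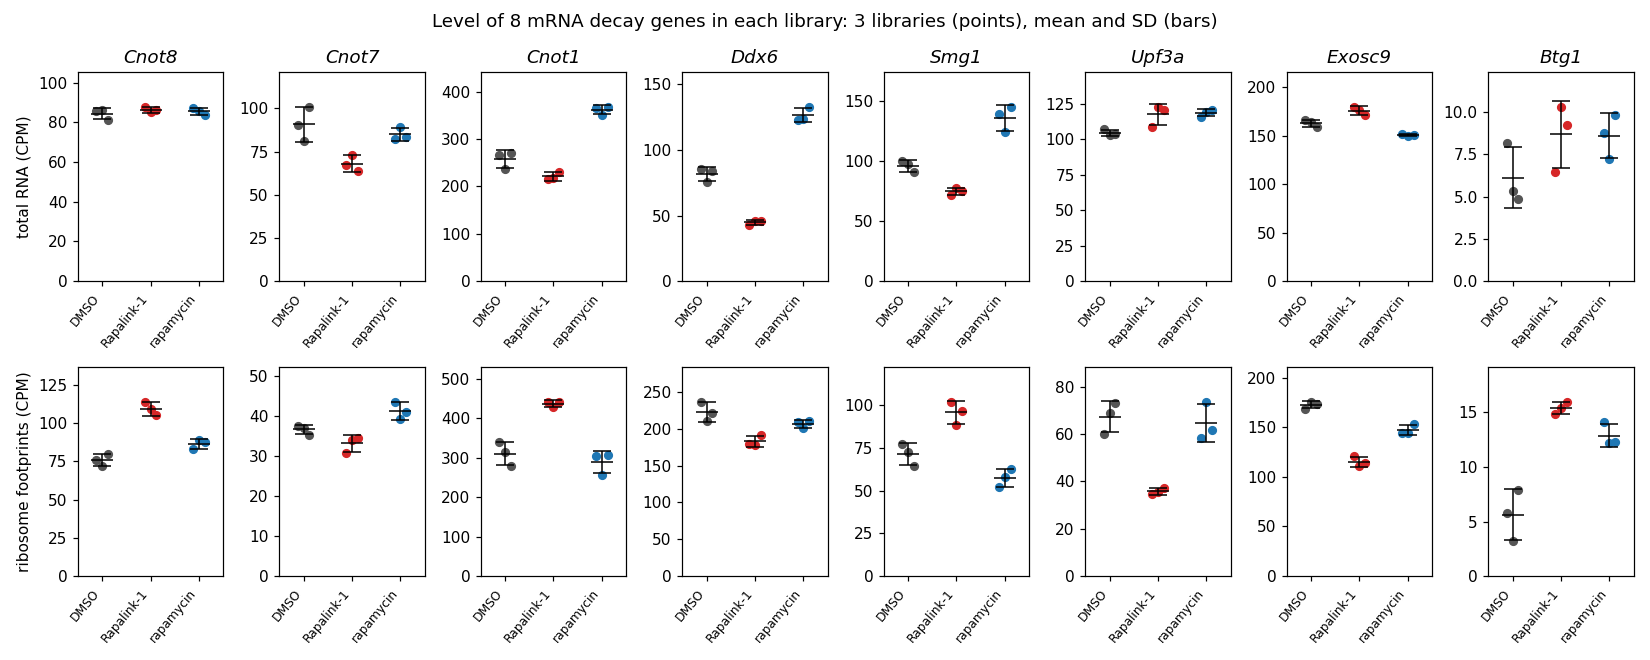
CPM (y axis, from 0) of 8 genes in total RNA (top) and ribosome footprints (bottom); points are the 3 libraries of each treatment and bars the mean and SD. Ddx6 RNA is lowest with Rapalink-1 and highest with rapamycin in every library, and Upf3a footprints with Rapalink-1 lie below 38 CPM while all others lie above 58 CPM.

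In decapping and 5′ to 3′ decay, RNA fell most for Ddx6, the helicase that represses mRNAs and activates decapping. Its RNA was 85.3, 75.9 and 84.0 CPM in DMSO, 42.6, 46.1 and 46.2 with Rapalink-1 and 123, 124 and 133 with rapamycin. The 3 groups did not overlap: every Rapalink-1 dish was low and every rapamycin dish high. The RNA change was -0.86 ± 0.07 (SE, adjusted p = 3.17e-14) with Rapalink-1. Footprints fell less, from 237, 211 and 221 to 179, 178 and 192 CPM, -0.29 ± 0.06 (SE, adjusted p = 4.82e-05), so efficiency rose by 0.62 ± 0.09 (SE, adjusted p = 5.53e-08). Under library totals the footprint fall of Ddx6 no longer passed.

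Other decapping genes moved in several directions with Rapalink-1. Efficiency rose for 2 of the 9 genes of this role and fell for 1, and footprints rose for 1 and fell for 4. Among all tested genes efficiency rose for 22.3% and fell for 19.9%, and footprints for 25.7% and 28.0%. The share of the role that rose in efficiency is thus near that of all genes. Xrn2, the nuclear 5′ to 3′ exonuclease, rose in RNA from 250, 231 and 239 to 324, 332 and 317 CPM, 0.43 ± 0.05 (SE, adjusted p = 6.5e-10). Its footprints fell from 268, 235 and 249 to 222, 206 and 221 CPM, a call lost under library totals, and its efficiency changed by -0.61 ± 0.08 (SE, adjusted p = 3.3e-09). The cytoplasmic Xrn1 passed in no readout with Rapalink-1: RNA -0.10 ± 0.09, footprints 0.07 ± 0.08, efficiency 0.22 ± 0.12. Dcp2, the decapping enzyme, fell in RNA by 0.28 ± 0.10 and in footprints by 0.49 ± 0.13, with an efficiency change of -0.17 ± 0.16 (SE, adjusted p = 0.421). The RNA call of Dcp2 was lost without DMSO replicate 2 or Rapalink-1 replicate 1, and its footprint call was lost under library totals.

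The 2 genes for DCP1, the activator of DCP2, went opposite ways in RNA. Dcp1a RNA was 14.9, 13.3 and 14.8 CPM in DMSO and 10.1, 8.38 and 9.34 with Rapalink-1, -0.62 ± 0.14 (SE, adjusted p = 0.000483). Dcp1b RNA was 3.86, 3.4 and 2.99 CPM and 8.08, 6.98 and 8.35, 1.17 ± 0.21 (SE, adjusted p = 1.96e-05), on 43, 39 and 21 reads in the DMSO libraries. Neither gene's RNA groups overlapped. The log2 ratio of Dcp1a to Dcp1b RNA was 2.08 ± 0.20 (SD, n = 3) in DMSO, 0.25 ± 0.08 with Rapalink-1 and 1.98 ± 0.39 with rapamycin.

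The LSM1-7 ring caps the 3′ end of shortened mRNAs. With Rapalink-1, RNA fell for 5 of its 7 genes and rose for 1, beside 18.8% and 19.3% of all genes tested. Footprints fell for 4 and rose for none, beside 28.0% and 25.7%, although under library totals they fell for 2 and rose for 1. Lsm5 fell by the same amount in both assays, with RNA at 73.8, 63.5 and 74.1 CPM in DMSO and 47.2, 44.8 and 44.0 with Rapalink-1. Its change was -0.63 ± 0.07 (SE, adjusted p = 3.57e-09) in RNA and -0.63 ± 0.08 in footprints, so efficiency stood at 0.04 ± 0.11 (SE, adjusted p = 0.786). Lsm6 fell in footprints from 67.4, 67.0 and 73.8 to 44.5, 39.6 and 38.6 CPM, -0.76 ± 0.08 (SE, adjusted p = 1.47e-10). Its efficiency fell by 0.44 ± 0.12, a call lost under library totals. Lsm4 went the other way in RNA, from 128, 149 and 119 to 160, 161 and 162 CPM, while its footprints went from 116, 124 and 111 to 85.1, 93.7 and 88.5 CPM. Its efficiency change was -0.63 ± 0.09 (SE, adjusted p = 5.42e-08). The RNA calls of Lsm6 and Lsm7 were each lost without Rapalink-1 replicate 3. The RNA call of Lsm2 depended on DMSO replicates 1 and 3 and on all Rapalink-1 replicates: leaving out 1 of them ended it.

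Among the exosome genes, efficiency relative to other genes fell for 7 of 10 after Rapalink-1 and rose for none, beside 19.9% and 22.3% of all genes tested. The median of the 10 was -0.37. Under library totals it was 0.00 with 1 lower and 2 higher, while the median of all genes moved up by 0.37. Footprints fell for 7 and rose for none, beside 28.0% and 25.7% of all genes, and under library totals 3 fell and 3 rose. RNA fell for 2 and rose for 2, near the 18.8% and 19.3% of all genes. Exosc9, a subunit of the ring that forms the exosome core, had RNA of 166, 164 and 159 CPM in DMSO and 180, 177 and 171 with Rapalink-1. Its footprints fell from 169, 176 and 174 to 121, 111 and 114 CPM, with no overlap, and its efficiency changed by -0.65 ± 0.08 (SE, adjusted p = 5.51e-10). Exosc9 was the 1 exosome gene whose efficiency still fell under library totals. Exosc6, another ring subunit, fell in footprints from 41.5, 54.7 and 48.4 to 29.9, 29.7 and 30.6 CPM and in efficiency by 0.61 ± 0.20. The efficiency call of Exosc6 was lost without any 1 of the Rapalink-1 replicates.

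Exosc1, a cap subunit of the exosome, had the lowest footprint value of the complex, -0.82 ± 0.09 (SE, adjusted p = 1.93e-10), with 48.5, 49.2 and 52.5 CPM in DMSO and 28.2, 30.1 and 26.5 with Rapalink-1. Exosc4 changed in efficiency by -0.50 ± 0.12 (SE, adjusted p = 0.000919). Exosc5 rose in RNA from 53.8, 63.9 and 65.3 to 89.4, 81.2 and 82.6 CPM, 0.47 ± 0.07 (SE, adjusted p = 2.56e-07), while its footprints overlapped at 51.0, 51.3 and 42.5 and 49.3, 52.4 and 42.7 CPM. Exosc10, the nuclear exonuclease of the complex, likewise rose in RNA by 0.31 ± 0.06 (SE, adjusted p = 8.18e-05) with a footprint change of -0.03 ± 0.06 (SE, adjusted p = 0.634). Its efficiency change was -0.30 ± 0.09 (SE, adjusted p = 0.00344) and became 0.07 under library totals. Exosc7 passed in none of the 9 comparisons. Losing DMSO replicate 1 ended the efficiency call of Exosc5, and losing Rapalink-1 replicate 1 ended that of Exosc8. The RNA call of Exosc1 was lost without DMSO replicate 3.

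Nonsense-mediated decay split between the kinase arm and Upf3a. Efficiency rose for 5 of 10 genes and fell for 1, with a median of 0.22. Under library totals 8 rose and 1 fell, but the median of all genes also moved up there, by 0.37. RNA fell for 5 and rose for 1, and footprints rose for 5 and fell for 3. Of all genes tested, 22.3% rose and 19.9% fell in efficiency. In RNA 18.8% fell and 19.3% rose, and in footprints 25.7% rose and 28.0% fell. Smg1, the kinase, had RNA of 100, 97.3 and 90.5 CPM in DMSO and 71.7, 77.5 and 75.3 with Rapalink-1. Its footprints were 77.2, 72.6 and 64.3 CPM in DMSO and 102, 88.4 and 96.7 with Rapalink-1. Neither assay overlapped, with RNA low and footprints high in all treated dishes. Its efficiency changed by 0.83 ± 0.10 (SE, adjusted p = 1.61e-09).

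Upf1, the helicase at the centre of the pathway, fell in RNA by 0.21 ± 0.06 and rose in efficiency by 0.41 ± 0.08 (SE, adjusted p = 4.21e-05). Its footprint change was 0.16 ± 0.05 (SE, adjusted p = 0.013), a call lost without DMSO replicate 3 or Rapalink-1 replicate 1. Upf2, which bridges UPF1 and UPF3, rose in footprints by 0.36 ± 0.08 (SE, adjusted p = 0.000317) and in efficiency by 0.42 ± 0.11. Smg5, an adaptor for phosphorylated UPF1, rose in efficiency by 0.26 ± 0.08, a call lost without DMSO replicate 1 or Rapalink-1 replicate 2.

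Upf3a and Upf3b are paralogs that bind the exon junction complex, and Upf3a had the lowest efficiency value of the 52 genes. Its RNA was 107, 103 and 104 CPM in DMSO and 109, 123 and 121 with Rapalink-1. Its footprints dropped from 60.2, 68.8 and 73.4 to 34.5, 35.7 and 37.3 CPM, -0.91 ± 0.09 (SE, adjusted p = 3.09e-11), with no overlap. Efficiency changed by -1.03 ± 0.11 (SE, adjusted p = 7.9e-12), and this was 1 of the 4 falls left under library totals. The RNA rise of 0.17 ± 0.06 (SE, adjusted p = 0.0216) was lost without Rapalink-1 replicate 2 or 3 and under library totals. Upf3b efficiency changed by -0.09 ± 0.14 (SE, adjusted p = 0.645). The log2 ratio of Upf3a to Upf3b footprints was -0.29 ± 0.18 (SD, n = 3) in DMSO, -1.03 ± 0.06 with Rapalink-1 and -0.16 ± 0.17 with rapamycin.

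**Figure D3:**
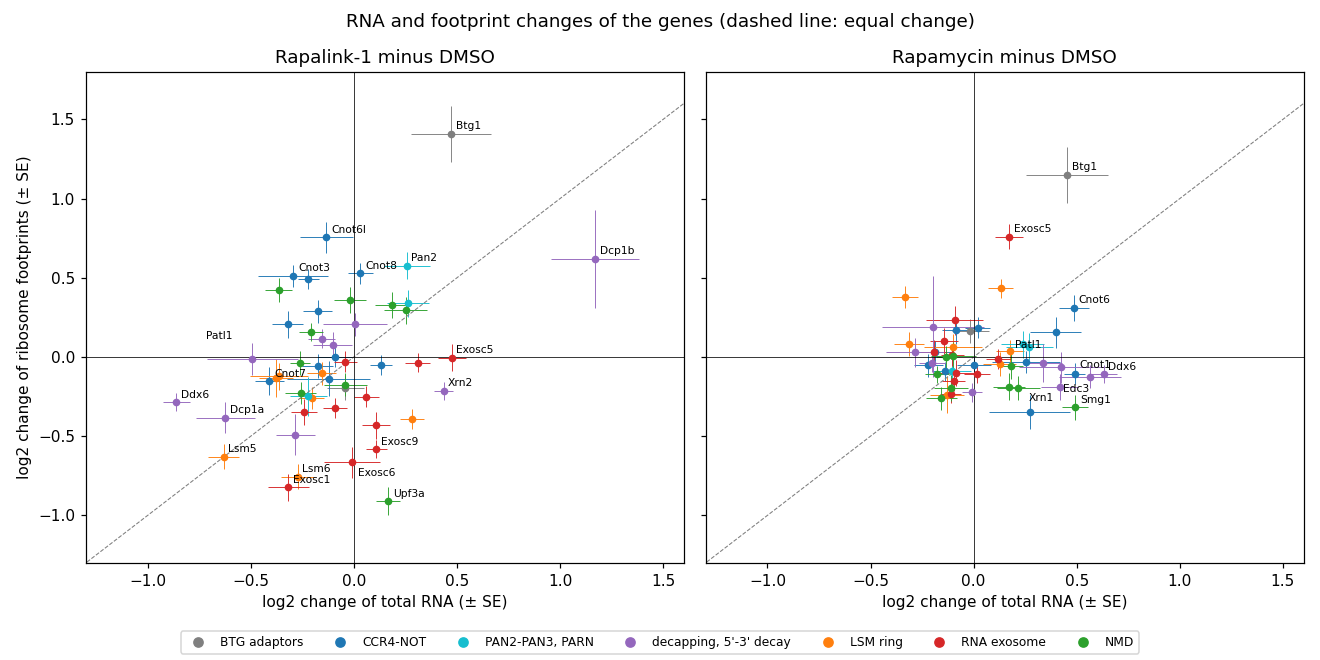
Log2 change of total RNA (x axis) against that of ribosome footprints (y axis) for the genes, ± SE, with Rapalink-1 on the left and rapamycin on the right; the dashed line marks equal change. Upf3a and Exosc9 lie far below the line with Rapalink-1, and Ddx6 lies left of 0 with Rapalink-1 and right of 0 with rapamycin.

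Rapamycin changed fewer members than Rapalink-1 did by count, and its RNA rises included Ddx6, Edc3, Smg1, Cnot1 and Cnot6. RNA rose for 9 members and fell for 7, against 13.6% and 10.5% of genes tested. Footprints rose for 6 and fell for 5, against 8.75% and 9.4%. Efficiency rose for 4 and fell for 9, against 6.52% and 9.85%. The member median was 0.00 for RNA, -0.04 for footprints and -0.07 for efficiency, with all genes at 0.00 in each. Under library totals 5 members rather than 9 fell in efficiency. Whether the number of responding members differed between the drugs was not tested. The library names hold RP for rapamycin footprints and RP-B for those of DMSO and Rapalink-1. What this marks is not given, and it cannot be told apart from rapamycin in footprints and efficiency.

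By role, RNA rose for 4 of the 9 decapping genes and 3 of the 11 CCR4-NOT genes with rapamycin, beside 13.6% of all genes. Ddx6 RNA rose by 0.63 ± 0.06 (SE, adjusted p = 1.13e-10) while its footprints, 237, 211 and 221 CPM in DMSO and 209, 201 and 211 with rapamycin, changed by -0.11 ± 0.06 (SE, adjusted p = 0.188). Its efficiency changed by -0.74 ± 0.08 (SE, adjusted p = 2.56e-09). Edc3, a decapping enhancer, had RNA of 8.88, 8.02 and 9.55 CPM in DMSO and 12.4, 14.9 and 11.3 with rapamycin. Its RNA rise of 0.56 ± 0.15 was lost without rapamycin replicate 2, and its efficiency changed by -0.69 ± 0.15 (SE, adjusted p = 0.000551). Xrn1 RNA went from 28.4, 27.8 and 30.2 to 40.4, 35.6 and 39.3 CPM, 0.42 ± 0.09 (SE, adjusted p = 0.000468), and its efficiency changed by -0.60 ± 0.12 (SE, adjusted p = 0.000253). Dcp2 RNA rose by 0.34 ± 0.09 (SE, adjusted p = 0.00538).

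Cnot1 RNA rose from 267, 236 and 270 to 366, 351 and 368 CPM with rapamycin, 0.49 ± 0.05 (SE, adjusted p = 2.96e-10). Its footprints overlapped at 339, 313 and 279 and 304, 256 and 306 CPM, and its efficiency changed by -0.59 ± 0.09 (SE, adjusted p = 5.47e-06). Cnot6 rose in both assays, with RNA changed by 0.49 ± 0.07 (SE, adjusted p = 3.97e-06) and footprints by 0.31 ± 0.08 (SE, adjusted p = 0.00605); the footprint call was lost without rapamycin replicate 1. Smg1 RNA rose from 100, 97.3 and 90.5 to 139, 124 and 145 CPM, and its footprints fell to 52.0, 57.8 and 62.3 CPM, -0.32 ± 0.08 (SE, adjusted p = 0.00294). Smg1 efficiency changed by -0.81 ± 0.10 (SE, adjusted p = 3.27e-08). Cnot4, an E3 ubiquitin ligase that associates with the complex, changed in efficiency by -0.61 ± 0.21 (SE, adjusted p = 0.0385), a call lost without any 1 of the 6 dishes. The efficiency call of Upf2, -0.36 ± 0.11, was lost without DMSO replicate 1 or 2 or rapamycin replicate 2. The efficiency calls of Upf3b and Xrn2 were lost when either DMSO replicate 1 or 2, or rapamycin replicate 2 or 3, was left out, and that of Xrn2 also without rapamycin replicate 1. Under library totals the efficiency calls of Cnot4, Upf2, Upf3b and Xrn2 were lost.

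Small ring and core subunits made up the efficiency rises with rapamycin. Lsm7 footprints went from 83.9, 85.4 and 87.8 to 112, 116 and 106 CPM while its RNA fell from 119, 114 and 115 to 85.4, 99.6 and 90.6 CPM. Its efficiency changed by 0.72 ± 0.09 (SE, adjusted p = 7.09e-08). Exosc5 footprints went from 51.0, 51.3 and 42.5 to 80.5, 88.4 and 76.7 CPM, 0.76 ± 0.08 (SE, adjusted p = 3.51e-09), and efficiency changed by 0.59 ± 0.11. Lsm4 footprints rose by 0.43 ± 0.06 (SE, adjusted p = 1.22e-06). The efficiency call of Lsm4, 0.31 ± 0.09, was lost without rapamycin replicate 2, and that of Lsm5, 0.40 ± 0.11, without DMSO replicate 1. Upf1, Exosc10, Cnot7 and Btg2 did not pass in efficiency or footprints with rapamycin.

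Both drugs were compared with the same DMSO libraries, so their values are given side by side only. The share of all genes called with both drugs, in the same or opposite directions, is not given here. The lists below are therefore not read as particular to the members. RNA was lower with Rapalink-1 and higher with rapamycin for 5 members: Cnot1 (-0.22 and 0.49), Cnot6 (-0.32 and 0.49), Dcp2 (-0.28 and 0.34), Ddx6 (-0.86 and 0.63) and Smg1 (-0.36 and 0.49). Efficiency was higher with Rapalink-1 and lower with rapamycin for Cnot1, Ddx6, Smg1 and Upf2. It was lower with Rapalink-1 and higher with rapamycin for Exosc5 (-0.44 and 0.59) and Lsm4 (-0.63 and 0.31). In footprints, Btg1, Cnot6 and Cnot8 were higher with both drugs, and Exosc9, Smg8 and Xrn2 were lower with both. The Rapalink-1 calls of Smg8 and Xrn2 were lost under library totals, and the rapamycin call of Xrn2 without DMSO replicate 1. Cnot8 with rapamycin, 0.18 ± 0.07 (SE, adjusted p = 0.0449), was lost without DMSO replicate 1 or 2 or rapamycin replicate 2 or 3.

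The difference between the drugs was also tested directly, Rapalink-1 minus rapamycin. The doses were 50 and 5 nM, and the footprint libraries were named RP-B with Rapalink-1 and RP with rapamycin. Compound, dose and whatever that name marks cannot be told apart. Efficiency was higher with Rapalink-1 for 18 members and lower for 15, against 26.1% and 23.9% of genes tested, and under library totals for 32 and 7. Footprints were higher for 15 and lower for 18, against 25.4% and 27.6%, and under library totals for 28 and 9. RNA was higher for 10 and lower for 19, against 19.6% and 21.5%, and under library totals for 4 and 31. That scaling also moved the median of all genes, by 0.33 for efficiency, 0.22 for footprints and -0.14 for RNA. By role, efficiency was higher for 7 and lower for 1 of the CCR4-NOT genes, and lower for 6 and higher for none of the exosome genes, while under library totals 4 exosome genes were lower and 1 was higher.

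Single genes carried large differences between the drugs. Ddx6 RNA differed by -1.49 ± 0.06 (SE, adjusted p = 9.41e-23), with 42.6, 46.1 and 46.2 CPM against 123, 124 and 133. Its footprints differed by -0.18 ± 0.06 (SE, adjusted p = 0.00781), which became 0.04 under library totals, and its efficiency by 1.35 ± 0.09 (SE, adjusted p = 9.94e-20). Smg1 differed by -0.86 ± 0.06 (SE, adjusted p = 5.72e-15) in RNA, 0.74 ± 0.08 in footprints and 1.64 ± 0.10 in efficiency, with footprints of 102, 88.4 and 96.7 CPM against 52.0, 57.8 and 62.3. Cnot1 differed by -0.71 ± 0.05 (SE, adjusted p = 1.29e-15) in RNA and 1.35 ± 0.09 (SE, adjusted p = 6.05e-16) in efficiency.

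Further genes were higher with Rapalink-1 in efficiency: Cnot6l by 1.17 ± 0.15 and Cnot3 by 1.14 ± 0.16. Patl1, a scaffold between the LSM ring and decapping, differed in RNA by -0.92 ± 0.21 (SE, adjusted p = 0.000382), on 3.71, 3.4 and 4.58 CPM against 9.15, 6.88 and 6.15. Exosc5 differed in efficiency by -1.03 ± 0.11 (SE, adjusted p = 1.74e-11), with footprints of 49.3, 52.4 and 42.7 CPM against 80.5, 88.4 and 76.7. Exosc6 and Lsm4 each differed by -0.94 in efficiency, and Upf3a by -0.80. Btg1 did not pass between the drugs in any readout, with an efficiency difference of 0.28 ± 0.26 (SE, adjusted p = 0.387). Btg2 efficiency, -0.29 ± 0.12 (SE, adjusted p = 0.0312), was lost without replicate 1 or 3 of either drug and was 0.03 under library totals. Cnot11, Cnot9, Exosc7 and Pan3 passed in none of the 9 comparisons.

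The balance of paralog pairs is given by the log2 ratio of their reads. Since the ratio of a pair also holds a fixed length term, it is compared across treatments, not read as which gene is more abundant. The log2 ratio of Cnot7 to Cnot8 in RNA was 0.10 ± 0.21 (SD, n = 3) in DMSO, -0.34 ± 0.12 with Rapalink-1 and -0.01 ± 0.07 with rapamycin. In footprints it was -1.05 ± 0.12, -1.73 ± 0.15 and -1.07 ± 0.13, and all 3 Rapalink-1 dishes lay below the other 6. The ratio of Cnot6 to Cnot6l in footprints was 0.84 ± 0.06 in DMSO, 0.29 ± 0.19 with Rapalink-1 and 0.99 ± 0.19 with rapamycin. In RNA it was 2.39 ± 0.06, 2.21 ± 0.25 and 2.48 ± 0.11, and the DMSO and Rapalink-1 dishes overlapped. The ratio of Btg1 to Btg2 in footprints was -3.24 ± 0.59, -1.50 ± 0.10 and -2.12 ± 0.16, without overlap between DMSO and either drug. In RNA it was -2.53 ± 0.50 in DMSO and -1.98 ± 0.40 with Rapalink-1, with overlap, and the rapamycin dishes overlapped both. The ratio of Upf3a to Upf3b in RNA was 1.28 ± 0.24, 1.49 ± 0.07 and 1.25 ± 0.11. DMSO dishes overlapped those of each drug. The Rapalink-1 dishes (1.55, 1.52 and 1.41) lay above the rapamycin dishes (1.38, 1.17 and 1.21). These ratios were not tested.

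**Figure D4:**
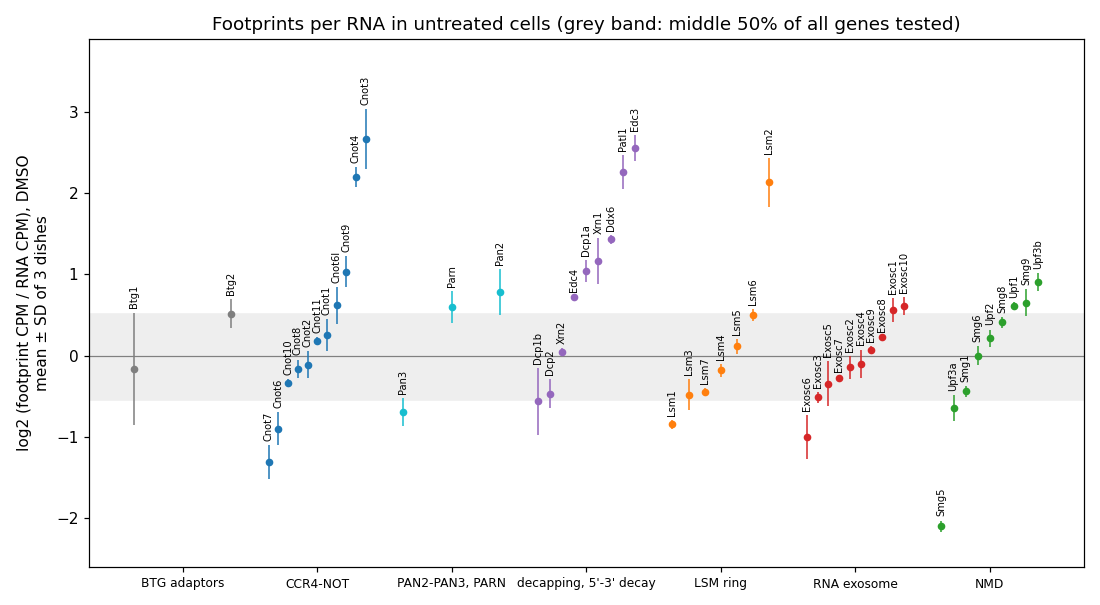
Log2 ratio of footprint CPM to RNA CPM in DMSO cells (y axis, mean ± SD of 3 dishes) of the genes by role; the grey line is the median and the grey band the middle 50% of all genes tested. Cnot3, Edc3, Patl1, Cnot4 and Lsm2 lie above 2 and Smg5 lies below -2.

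In DMSO cells the members differed widely in footprints per RNA. Gene length cancels in this ratio only if both assays count reads over the same part of a transcript, which was not tested. The order of the genes may therefore still hold a length term. The median of the 52 log2 ratios was 0.14, with -0.01 over all 10988 genes, and under library totals it was 0.004. Cnot3 was highest at 2.67 ± 0.37 (SD, n = 3), at the 98.9th percentile of all genes, followed by Edc3 at 2.55 ± 0.16, Patl1 at 2.26 ± 0.21, Cnot4 at 2.20 ± 0.12 and Lsm2 at 2.13 ± 0.30. These neighbours lay within their spread of each other, and each had an RNA level of at most 15.1 CPM in every DMSO library. Smg5 was lowest at -2.10 ± 0.07, the 1.6th percentile, and stood apart from the next gene, Cnot7, at -1.31 ± 0.21. Decapping genes had the highest median of the larger roles, 1.05, and exosome genes stood at -0.12. Ddx6 was at 1.43 ± 0.05 and Smg1 at -0.44 ± 0.06.

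Other genes of the pathway were taken from lists of roles. Of 26 genes for poly(A) binding and recruitment of deadenylases, efficiency with Rapalink-1 rose for 9 and fell for 5, beside 22.3% and 19.9% of all genes tested. Pabpc1, the cytoplasmic poly(A)-binding protein that stimulates translation and recruits deadenylases, changed in footprints by -3.25 ± 0.06 (SE, adjusted p = 1.6e-35) and in efficiency by -2.95 ± 0.22 (SE, adjusted p = 1.84e-07). With rapamycin Pabpc1 footprints changed by -0.63 ± 0.05 (SE, adjusted p = 2.21e-12). Pabpc1 has near-identical pseudogene copies, so how its reads were assigned is uncertain. Pabpc4 changed in efficiency by -1.85 ± 0.08 with Rapalink-1, Khsrp, which binds AU-rich elements, by -0.86 ± 0.09, and nuclear Pabpn1 by -0.85 ± 0.09. Rises included Rc3h1 (Roquin-1) at 0.92 ± 0.15, Pum2 at 0.75 ± 0.09 and Tnrc6c, which links Argonaute to CCR4-NOT, at 0.68 ± 0.13.

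Of 11 further decapping and P-body genes, 3 rose and 2 fell in efficiency with Rapalink-1. Pnrc2, which joins UPF1 to decapping, rose by 0.91 ± 0.15 (SE, adjusted p = 1.75e-06), and its relative Pnrc1 rose in footprints by 1.06 ± 0.12 (SE, adjusted p = 5.48e-10) and in RNA by 0.68. Of 19 exosome cofactors, 6 rose and 7 fell in efficiency. Of 17 genes of the exon junction complex and termination, 4 rose and 7 fell. All these counts stand beside the same 22.3% higher and 19.9% lower of all genes tested. Among transcripts described as targets of nonsense-mediated decay, 4 of 8 had a row. In RNA, 1 of the 4 rose and 1 fell with Rapalink-1, beside 19.3% and 18.8% of all genes, and 2 fell with rapamycin, beside 10.5%. In footprints 3 fell with Rapalink-1, beside 28.0%, and 1 with rapamycin, beside 9.4%. Atf4, a stress-response transcription factor, fell in RNA by 0.90 ± 0.05 with Rapalink-1 and 0.73 ± 0.05 with rapamycin, and in footprints by 1.14 ± 0.10 and 0.71 ± 0.10. Tbl2 rose in RNA with Rapalink-1 by 0.38 ± 0.11 (SE, adjusted p = 0.00408) and its footprints changed by -0.38 ± 0.12 (SE, adjusted p = 0.00844). Ddit3 RNA changed by -0.04 ± 0.15 (SE, adjusted p = 0.872) with Rapalink-1 and -0.70 ± 0.16 (SE, adjusted p = 0.000863) with rapamycin. Gadd45a RNA changed by 0.03 ± 0.25 and -0.12 ± 0.26, and neither passed.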

How the data were processed

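Ribosome footprints and total RNA of 9 dishes were measured with the ARTseq kit, per the labels. The count values are whole-number reads per transcript row, as deposited by the authors without normalization; the build was GRCm38, per the submitters' processing notes, while the aligner was not given in the sources used here. Log2 fold changes and the adjusted p-value columns of 6 comparison tables are the authors' deposited results, used here for gene symbols and as a side check only. Per the authors' deposited tables, 16 members were higher and 12 lower in efficiency with Rapalink-1, and 27 calls were shared with the fit used here.

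Of 27382 transcript rows, 6378 were 0 throughout and 8528 shared counts with another row; merging gave 15307 features, of which 9787 had a symbol. Members matched 61 rows, none shared with another symbol. Features without a symbol (1.83 to 2.15% of reads) stayed in the fits. Counts were fitted with edgeR 4.0.16 in R 4.3.3 (TMM, filterByExpr with a minimum count of 10 and a total of 15, glmQLFit robust, glmQLFTest), with 9 libraries per assay, or 18 for efficiency, the interaction of assay and treatment. P-values were adjusted by Benjamini-Hochberg over all genes tested and called under 0.05; SE is the fold change divided by the square root of F. The fit was tested on simulated data with 200 changed genes. Those changes were balanced up and down, so the simulation does not bear on the choice of scaling. Members and lists were chosen with earlier results of these data known. Genes given with statistics were the called members with the largest change (8 in each direction for Rapalink-1 against DMSO, 5 otherwise, mean log2 CPM of at least 2), plus 11 genes given always, up to 4 other pathway genes in each direction and Pabpc1; others were named after their values were seen. DMSO ratios added 0.5 CPM. Alternatives were DESeq2 1.42.0 (test and size factors), TMM without ribosomal protein genes, library totals, no filter, only the treatments compared, replicate blocks and leaving out each replicate. Members with few reads, such as Btg1, Dcp1b, Patl1 and Cnot4, have the largest errors in RNA. The values of 1 member are not reported here, and the plots leave it out; counts over members include it.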

Additional observations from a re-analysis of the deposited data

How the results depend on the processing

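Scaling by library totals moved most counts, and it moved the median of all genes with Rapalink-1 too. With Rapalink-1 against DMSO, RNA fell for 29 members, footprints rose for 28 and fell for 6, and efficiency rose for 35 and fell for 4. Efficiency fell with rapamycin for 5. Between the drugs, RNA was higher for 4 and lower for 31, footprints were higher for 28 and lower for 9, and efficiency was higher for 32 and lower for 7. The DMSO ratio median was 0.004. Values that changed sign there were footprints of Btg2 (0.079) and Exosc10 (0.238) and efficiency of Exosc10 (0.066) with Rapalink-1, and, between the drugs, footprints of Ddx6 (0.044) and efficiency of Btg2 (0.032). The other alternatives kept every count within 1.5 times, apart from leaving out replicates. DESeq2's Wald test ended the calls of Cnot2, Lsm2 and Parn RNA and of Btg2, Cnot6 and Upf3b footprints with Rapalink-1. With rapamycin it ended those of Cnot8 footprints and Xrn2 efficiency. Between the drugs it ended those of Lsm4, Upf2 and Upf3b RNA and of Lsm6 and Smg6 efficiency. The cause was not tested. A value that missed the threshold in both settings was given no direction.

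With 1 replicate left out, member counts higher and lower ranged from 5 to 9 and 15 to 20 for RNA, 12 to 15 and 17 to 19 for footprints and 14 to 15 and 9 to 12 for efficiency with Rapalink-1. With rapamycin they ranged from 8 to 13 and 3 to 7, 5 to 6 and 4 to 7, and 3 to 7 and 6 to 9. Between the drugs they ranged from 9 to 10 and 15 to 17, 13 to 15 and 16 to 19, and 17 to 19 and 11 to 13. Where this leaves 2 dishes in an arm, the spread is shared with the other groups.

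Replicate numbers did not pair RNA libraries across treatments. Same-numbered ones correlated at -0.16 to 0.04 (0 of 9 above 0.1), differently numbered ones at -0.09 to 0.13 (3 of 18). Footprint libraries leaned toward pairing by number. Same-numbered ones correlated at -0.17 to 0.20 (median 0.12, 5 of 9 above 0.1). Differently numbered ones stood at -0.33 to 0.26 (median -0.06, 2 of 18). Between RNA and footprints of 1 treatment, 3 of 9 same-numbered and 0 of 18 differently numbered pairs exceeded 0.1. All 3 were DMSO pairs (0.163, 0.174 and 0.145). Same-numbered pairs with Rapalink-1 or rapamycin ran from -0.074 to 0.034. With replicate number as a block, of the values given with statistics the call of Parn RNA with Rapalink-1 was lost (0.26, adjusted p = 0.0582). With the dish as a block for RNA and footprints of 1 lysate, Btg1 efficiency with rapamycin passed (0.765, adjusted p = 0.0489). The rapamycin pairs themselves showed no correlation above 0.1.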
